A study of Mus musculus with 60 samples.

Results

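The 28 genes described here make cholesterol from acetyl-CoA or govern how much of it a cell makes, takes up, stores and exports. They were picked by symbol from a list that was drawn up with earlier results of these data known, although the rule itself uses no measured value, and all 28 were found among the 55290 genes named in each of 5 poly-A tables, 1 per organ. The list holds 7 enzymes of the mevalonate segment (Acat2, Hmgcs1, Mvk, Pmvk, Mvd, Idi1 and Fdps) and 11 of the squalene and sterol segment (Fdft1, Sqle, Lss, Cyp51, Tm7sf2, Msmo1, Nsdhl, Hsd17b7, Ebp, Sc5d and Dhcr7). It adds 4 genes of the SREBP2 switch (Srebf2, Insig1, Insig2 and Scap) and 6 of sterol handling (Stard4, Mylip, Soat1, Soat2, Npc1l1 and Abca1).

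Liver, kidney, heart, spleen and brain were taken whole from 6 male mice aged 4 months, 3 of them labelled Ftsj1_DF (Ftsj1-deficient) and 3 labelled WT (wildtype). FTSJ1 is an X-linked enzyme that methylates ribose in the anticodon loop of some tRNAs, and the labels do not say how the gene was disrupted. The labels name 2 sets of brothers, of 2 and 4 mice, and each genotype took 1 mouse from the smaller set and 2 from the larger. The mice received no other treatment, and each organ gave 1 poly-A library per mouse.

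Cholesterol is built from acetyl-CoA through mevalonate, squalene and lanosterol, and most enzymes of the route are transcribed under the control of SREBP2. SCAP carries SREBP2 out of the endoplasmic reticulum when membrane sterol is low, and the INSIG proteins hold both back when it is high. The related factor SREBP1c drives fatty acid synthesis, and the liver is a main site of both syntheses.

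Since most of the 28 genes are known targets of SREBP2, the promoters of those that the results turn on are shown first. RefSeq windows of 300 bases, from 250 before to 50 after the annotated start, matched 23 of the 28 genes (all but Fdps, Fdft1, Sqle, Stard4 and Soat2) with 29 windows, in build GRCm38.p6. Each is printed 5′ to 3′ on the strand of its gene, and capitals mark CCAAT, the core of the NF-Y site (read as ATTGG on the other strand), and TCACNCCAC, a form of the sterol regulatory element. Dhcr7 and Lss passed the test in liver, Hsd17b7 passed in heart, and the window of Hmgcs1 was the 1 of 29 that held TCACNCCAC. Dhcr7 has 3 windows, and the one with the most marked matches is printed, while its other windows hold no marked match.
Dhcr7, chr7:143829964-143830263, plus strand: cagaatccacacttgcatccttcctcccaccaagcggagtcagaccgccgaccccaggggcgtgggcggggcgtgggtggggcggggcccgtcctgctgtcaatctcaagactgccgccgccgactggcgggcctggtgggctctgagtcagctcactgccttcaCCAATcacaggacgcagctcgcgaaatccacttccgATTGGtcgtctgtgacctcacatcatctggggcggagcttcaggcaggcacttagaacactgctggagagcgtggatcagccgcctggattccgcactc
Lss, chr10:76531355-76531654, plus strand: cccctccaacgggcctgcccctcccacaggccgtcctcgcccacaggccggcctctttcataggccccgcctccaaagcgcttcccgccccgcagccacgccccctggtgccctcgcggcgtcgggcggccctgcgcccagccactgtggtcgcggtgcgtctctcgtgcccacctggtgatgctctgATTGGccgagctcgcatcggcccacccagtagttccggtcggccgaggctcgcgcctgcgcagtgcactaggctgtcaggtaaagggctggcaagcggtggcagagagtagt
Hsd17b7, chr1:169969156-169969455, minus strand: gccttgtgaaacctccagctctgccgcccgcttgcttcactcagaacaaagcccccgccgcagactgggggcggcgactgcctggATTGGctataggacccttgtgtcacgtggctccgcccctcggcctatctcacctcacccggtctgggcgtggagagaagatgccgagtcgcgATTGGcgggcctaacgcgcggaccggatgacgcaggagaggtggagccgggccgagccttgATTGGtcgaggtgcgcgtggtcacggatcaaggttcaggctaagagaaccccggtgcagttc
Hmgcs1, chr13:119690101-119690400, plus strand: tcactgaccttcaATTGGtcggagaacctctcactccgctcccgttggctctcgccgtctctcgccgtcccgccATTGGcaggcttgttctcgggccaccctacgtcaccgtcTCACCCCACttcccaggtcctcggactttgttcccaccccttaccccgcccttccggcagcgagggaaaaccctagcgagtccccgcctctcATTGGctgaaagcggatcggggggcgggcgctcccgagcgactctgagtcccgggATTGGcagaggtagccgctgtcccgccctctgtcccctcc

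On both strands, CCAAT stood in 20 of the 29 windows (69.0%), against 37.4% of all 32851 windows of the table. The Sp1 motif GGGCGG stood in 24 of 29 (82.8%), against 35.7% of all windows and 56.3% of the windows of genes tested in liver. The E-box CACGTG stood in 7 of 29 (24.1%), against 7.15% of all windows and 9.1% of the windows of genes tested in liver. Those 7 windows belong to 6 genes, because overlapping windows of Scap share a CACGTG match, and they share a GGGCGG match too. TCACNCCAC stood in 1 of 29 against 1.24%. These matches describe letters in a short window, and no binding was measured.

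For each gene and organ the tables give a mean level over all 6 mice (a mean of normalised counts) and a p-value. They also give the log2 fold change of deficient against wildtype mice with its standard error (SE). The adjusted p-value covers the genes tested in that organ, in liver 18263 of the 55290 named. No value per mouse is held in them, so fold changes are given with the authors' SE (n = 3 mice per genotype) and with 95% intervals computed from it, and whether the genotypes overlapped mouse by mouse cannot be seen. An adjusted p under 0.05 in the authors' test is the threshold for writing that a gene rose or fell. The p-values measure the spread between these mice only. Ftsj1 itself, the check of the labels, stood at between 8.79% and 15.4% of the wildtype level in the 5 organs, from the fold changes in the authors' deposited tables. The summed level of 5 marker genes per organ was highest in the labelled organ for all 5 organs. The B cell marker Ms4a1 was listed at 0 in every organ, spleen included. Lcat and Hsd3b7, of the lists of neighbouring pathways read below, were likewise listed at 0 in every organ, liver included, and so were not tested.

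The 5 organs differed widely in how much of this RNA they held. As a share of an organ's summed level, the 18 synthesis enzymes together took 2708 ppm (parts per 1000000) in liver, 1275 in kidney, 801 in brain, 382 in spleen and 161 in heart. Of the 28 genes, 20 had their highest share in liver and 21 their lowest in heart. Sc5d, which places a double bond in the sterol ring, had 741 ppm in liver and 21.0 in heart. Hmgcs1, which makes HMG-CoA, and Cyp51, the lanosterol demethylase, were instead highest in kidney, at 363 and 283 ppm, ahead of liver at 321 and 255 ppm. Soat2, the acyltransferase that stores cholesterol as ester in liver and gut, had 39.8 ppm in liver and 0.105 in brain.

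Srebf2, Mylip and Soat1 ran the other way, with spleen highest. Srebf2, which encodes SREBP2, had 313 ppm in spleen, 271 in brain, 128 in kidney, 68.1 in liver and 46.1 in heart. Mylip, which marks lipoprotein receptors for degradation, had 134 ppm in spleen and 15.2 in liver. Soat1, the widely expressed esterifying enzyme found in macrophages, had 69.7 ppm in spleen and 4.76 in liver. Npc1l1, the intestinal sterol importer, had at most 1.23 ppm, in brain. These shares are not corrected for gene length and come from separately normalised tables with no spread between mice, so no test was made between organs, and neighbouring values in an order such as 363 and 321 ppm cannot be said to differ.

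**Figure D1:**
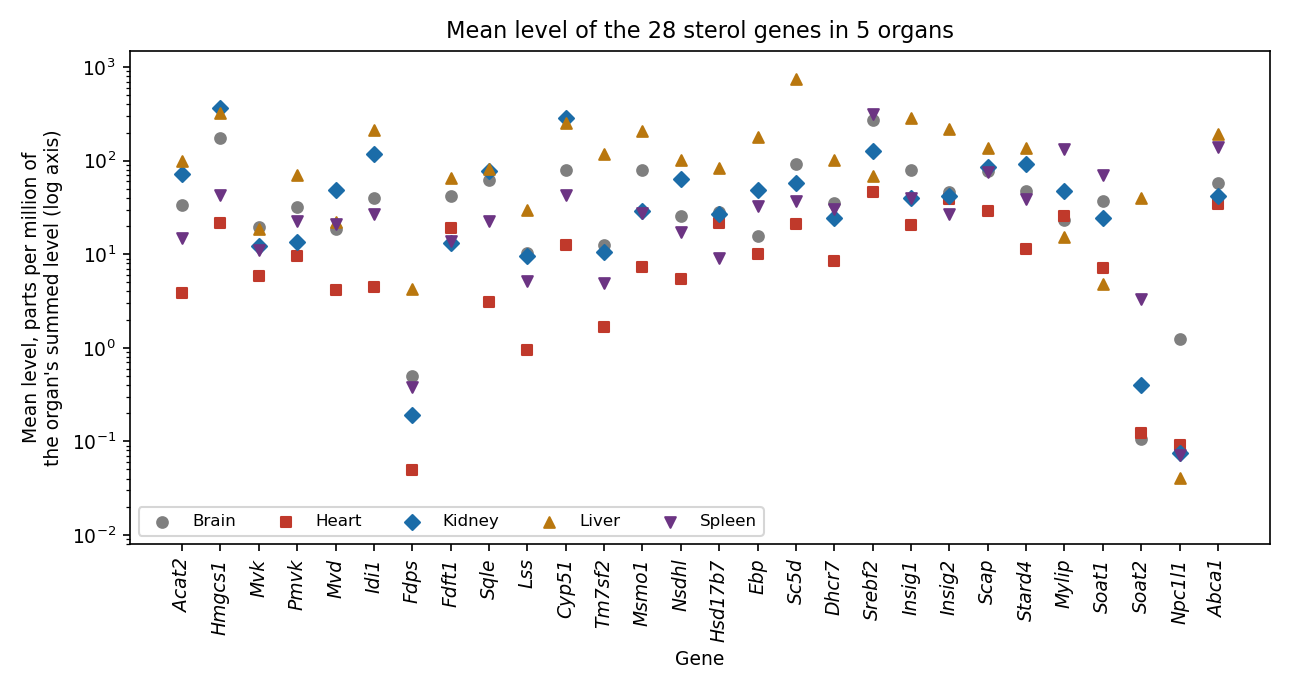
Mean level of each of the 28 genes (horizontal axis) in ppm of the organ's summed level (vertical axis, log scale), with 1 point per organ from the authors' deposited tables. Liver points are highest for 20 genes and heart points lowest for 21, while Srebf2, Mylip and Soat1 are highest in spleen.

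In liver, 2 enzymes of the squalene and sterol segment fell in deficient mice, and the estimates of the other 16 synthesis enzymes lay below 0 without passing the test. Dhcr7, which carries out a last step from 7-dehydrocholesterol to cholesterol, had the largest fall, to 61.3% of the wildtype level. Lss, which closes squalene epoxide to lanosterol, fell to 69.4%. The SREBP2 gene itself stood at 94.5% of wildtype and did not pass. Of the 27 genes with an adjusted p in liver 2 passed, where 2.29% of all 18263 tested genes did and 1.41% fell.

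Dhcr7 had a mean level of 24320 and a log2 fold change of -0.71 ± 0.15 (SE; adjusted p = 0.00028, DESeq2) in the authors' deposited table for liver, and its 95% interval ran from 50.2% to 74.8% of wildtype. Lss had a mean level of 7121 and a log2 fold change of -0.53 ± 0.16 (SE; adjusted p = 0.0404, DESeq2) in the authors' deposited table, with an interval of 56.0% to 86.0%. The call of Lss sits near the threshold. Its adjusted p became 0.0976 when the 5 organs were adjusted together and 0.0699 with no filter on low levels. Lss overlaps the non-coding gene 4930483K19Rik, and whether reads were assigned by strand was not stated in the sources used here. That neighbour had a mean level of 55.2 in the authors' deposited table for liver, and its log2 fold change was -0.31 ± 0.38.

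Among the first enzymes of the route, Acat2, which joins 2 acetyl-CoA units, had a log2 fold change of -0.31 ± 0.15 in the authors' deposited table for liver. Hmgcs1 had -0.51 ± 0.20, and the kinase Mvk -0.45 ± 0.21, in the same authors' deposited table. Their unadjusted p-values were 0.0361, 0.0113 and 0.0291, and their adjusted p-values lay between 0.209 and 0.387 (DESeq2). Pmvk, the second kinase, had -0.19 ± 0.12 and the isomerase Idi1 -0.06 ± 0.16 in the authors' deposited table. The decarboxylase Mvd and the farnesyl diphosphate synthase Fdps had wide errors, -0.50 ± 0.48 and -0.63 ± 0.53 in the authors' deposited table, and their 95% intervals ran from 36.8% to 136% and from 31.6% to 132% of wildtype. Fdps had at most 4.25 ppm in any organ, and 5 other annotated genes, 4 of them pseudogenes, share stretches of at least 200 bases at 95% identity or more with its transcripts. The treatment of reads that match several places is likewise not stated, which also touches Acat2, Fdft1, Hmgcs1, Idi1 and Scap, whose transcripts have such copies or overlaps too.

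In the squalene and sterol segment, estimates in the authors' deposited table for liver ran on the log2 scale from -0.71 for Dhcr7 to -0.03 for Cyp51. Besides Dhcr7 and Lss, 6 of the 11 enzymes had an unadjusted p under 0.05. Fdft1, which makes squalene, had -0.36 ± 0.15, and Sqle, which oxidises it, -0.36 ± 0.18 in the authors' deposited table. Msmo1, a demethylating oxidase, had -0.44 ± 0.22, and Sc5d -0.37 ± 0.15, in the authors' deposited table. The sterol reductase Tm7sf2 and the dehydrogenase Nsdhl had -0.32 ± 0.16 and -0.31 ± 0.14 in the authors' deposited table. Tm7sf2 overlaps the coding gene Vps51, which had a mean level of 2772 and a log2 fold change of -0.13 ± 0.15 in the authors' deposited table for liver, so reads of the pair are uncertain in the same way as for Lss. None of those 6 enzymes passed (adjusted p between 0.237 and 0.447, DESeq2). Ebp, the sterol isomerase, had -0.18 ± 0.11, Hsd17b7, the keto reductase of the same demethylation complex as Nsdhl, -0.04 ± 0.19, and Cyp51 -0.03 ± 0.14 in the authors' deposited table.

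Of the control genes in liver, Insig1, itself an SREBP target that retains SCAP, had -0.59 ± 0.20 (adjusted p = 0.0833, DESeq2) in the authors' deposited table. Scap had -0.42 ± 0.14 (adjusted p = 0.0981, DESeq2) in the authors' deposited table. Both thus missed the threshold and would pass at an adjusted p under 0.1. Insig2, the second retention protein, had +0.19 ± 0.18 and Srebf2 -0.08 ± 0.17 in the authors' deposited table. The interval of Srebf2 ran from 74.8% to 119% of wildtype, which leaves room for a fall as large as those estimated for several enzymes.

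The handling genes were mixed in liver. Stard4, a cytosolic sterol carrier, had -0.35 ± 0.16 (unadjusted p = 0.0261) in the authors' deposited table. Soat1 had +0.42 ± 0.16 (unadjusted p = 0.00896, adjusted p = 0.181, DESeq2) in the authors' deposited table, the 1 positive estimate among the 28 genes with an unadjusted p under 0.05. Its liver-type relative Soat2 had -0.02 ± 0.16, the exporter Abca1 -0.14 ± 0.14 and Mylip +0.10 ± 0.17 in the authors' deposited table. Npc1l1, at a mean level of 9.60 in liver, has no adjusted p in the authors' deposited table.

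**Figure D2:**
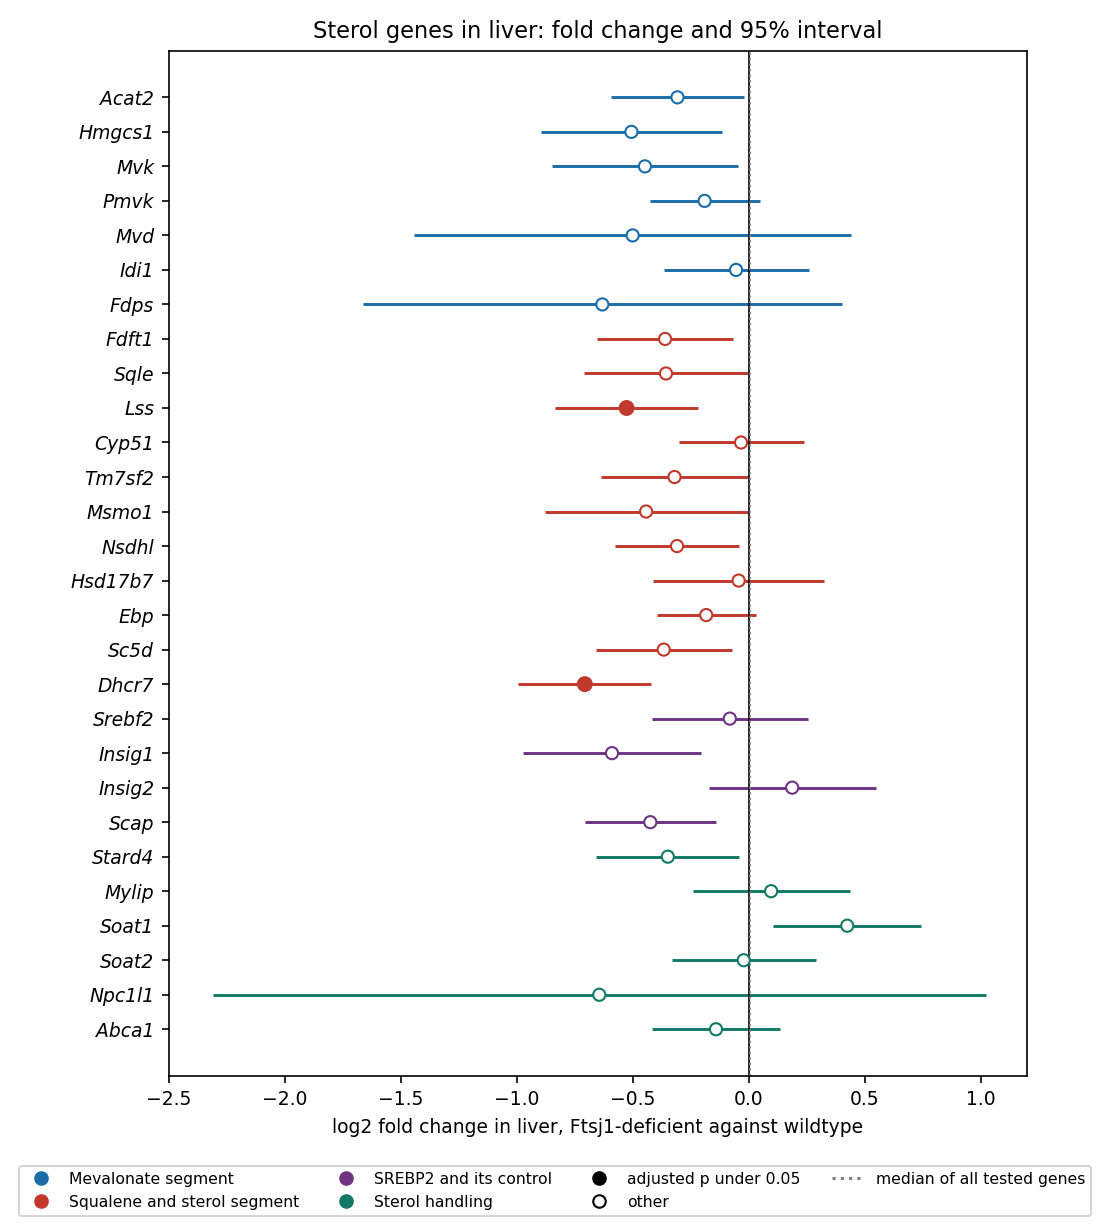
Log2 fold change in liver (horizontal axis, Ftsj1-deficient against wildtype) for each of the 28 genes, with 95% intervals computed from the authors' SE; filled points are Dhcr7 and Lss, which passed at an adjusted p under 0.05. All 18 enzyme points lie left of 0, and the widest intervals belong to Npc1l1, Fdps and Mvd.

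Counted over the list, 24 of 27 genes had a negative estimate in liver, against 48.8% of all tested genes and 51.1% of those with a mean level of 1000 or more. An unadjusted p under 0.05 with a negative sign was found for 14 of 27, against 5.39% of all tested genes (5.88% of those at 1000 or more), and with a positive sign for 1 of 27, against 5.52%. The median log2 fold change was -0.32 over the 27 genes and -0.36 over the 18 enzymes, beside 0.01 over all tested genes. Genes under a shared regulator in the same 6 livers are not independent of each other, and these counts carry no test. In a whole organ, fewer cells of a type and less RNA per cell cannot be told apart.

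Markers of other cells in the liver were read from the same table. None of 6 hepatocyte markers passed (DESeq2; 1 had an unadjusted p under 0.05), and their median log2 fold change was -0.04. Of the 5 liver tissue markers 4 had negative estimates and 2 an unadjusted p under 0.05, with a median of -0.22 and none passing (DESeq2). All 7 macrophage markers had positive estimates, from 0.38 to 0.63 with a median of 0.43, and 6 of them had an unadjusted p under 0.05 while none passed (DESeq2). Of 5 neutrophil markers tested 2 rose, S100a8 by 0.99 ± 0.24 and S100a9 by 0.88 ± 0.23 on the log2 scale in the authors' deposited table. Of 6 adipocyte markers tested 2 fell, Cfd with a log2 fold change of -2.52 ± 0.53 and Cidec with -0.75 ± 0.17 in the authors' deposited table. The 5 erythroid markers had a median of 0.55, with none passing and none at an unadjusted p under 0.05 (DESeq2). Of 4 oligodendrocyte markers tested Cnp fell (log2 fold change -0.52 ± 0.14 in the authors' deposited table). The estimates of that list were negative for 2 of 4, with a median of -0.005 and a highest value of 0.75. Of 3 adrenal cortex markers tested Cyp21a1 fell, at a mean level of 31.6 (-1.97 ± 0.54 in the authors' deposited table). That list had a median of -0.29 and a highest value of 0.50. The tables hold 1 mean level over both genotypes, so summed marker levels per genotype cannot be given, and the part of these cells in the sterol gene values was not tested.

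Neighbouring pathways in liver were read from lists of other genes. Of 12 genes of SREBP1c and fatty acid synthesis, 6 fell, and their list median was -0.84. Thrsp, a lipogenic nuclear protein, had a log2 fold change of -2.15 ± 0.49, and Acly, which supplies cytosolic acetyl-CoA, one of -1.12 ± 0.24, in the authors' deposited table. Srebf1, the gene of SREBP1, had -1.06 ± 0.21, and Acss2, which makes acetyl-CoA from acetate, -0.86 ± 0.19, in the authors' deposited table. Gpam, of glycerolipid synthesis, had -0.85 ± 0.20 and the desaturase gene Scd1 -0.83 ± 0.25 in the authors' deposited table. None of 11 further sterol pathway genes tested passed, and none had an unadjusted p under 0.05 (DESeq2; median -0.04). Of 10 genes of uptake, efflux and storage 1 rose, Nceh1, which hydrolyses cholesterol esters (log2 fold change 0.48 ± 0.12 in the authors' deposited table). Of 10 oxysterol and bile acid genes, Cyp39a1, an oxysterol hydroxylase, rose by 0.73 ± 0.16 and Cyp46a1, the 24-hydroxylase known from brain, fell by 0.88 ± 0.24 on the log2 scale in the authors' deposited table.

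In heart, 1 of the 28 genes passed, where 0.541% of 21428 tested genes did and 0.21% rose. Hsd17b7 rose to 163% of the wildtype level, with a 95% interval of 136% to 194%, at a mean level of 3016 and an adjusted p of 0.000131 (DESeq2) in the authors' deposited table for heart. Its partner enzymes of sterol demethylation did not pass: Msmo1 had +0.22 ± 0.18 and Nsdhl -0.06 ± 0.18 in the authors' deposited table. Stard4 had +0.30 ± 0.15 (unadjusted p = 0.0387) and Mylip -0.29 ± 0.13 (unadjusted p = 0.028) in the authors' deposited table, and neither passed. An unadjusted p under 0.05 was found for 3 of 28 genes, against 8.36% of all tested genes. The median over the 28 genes was -0.04, and 16 of 28 estimates were negative, against 50.8% of all tested genes.

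The heart samples also differed between the genotypes in markers of other cells. Of 6 neutrophil markers 4 rose, with a list median of 1.71, and all 5 proliferation markers had positive estimates, with a median of 0.72, 3 unadjusted p-values under 0.05 and none passing (DESeq2). The 6 hepatocyte markers had a median of -3.87 at a summed share of 12.2 ppm, and none passed (DESeq2; 2 had an unadjusted p under 0.05). Of 7 adipocyte markers Lep fell and the list median was -1.98. The part of these cells in the Hsd17b7 value was not tested. No gene of the 4 neighbouring pathway lists passed in heart (DESeq2), and 4 of 12 genes of the SREBP1c and fatty acid list had an unadjusted p under 0.05. Estimates of that list were negative for 11 of 12, with a median of -0.19 and a lowest value of -2.02.

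In kidney, none of the 28 genes passed, where 0.987% of 23313 tested genes did. The smallest p belonged to Pmvk, with +0.32 ± 0.10 (unadjusted p = 0.00154, adjusted p = 0.119, DESeq2) in the authors' deposited table for kidney. Cyp51 followed with +0.24 ± 0.10 (unadjusted p = 0.015) and Sc5d with -0.15 ± 0.10 (unadjusted p = 0.122) in the authors' deposited table. Thus 2 of 28 had an unadjusted p under 0.05, against 5.83% of all tested genes, and 20 of 28 estimates were negative, against 48.7%. Among the oxysterol and bile acid genes, Cyp7b1, an oxysterol hydroxylase, rose by 0.45 ± 0.12 on the log2 scale in the authors' deposited table. Acacb and Elovl6, of fatty acid synthesis and elongation, rose by 0.44 ± 0.11 and 0.55 ± 0.11 on the log2 scale in the authors' deposited table. Markers of other cells differed in kidney too. Of 6 neutrophil markers 2 rose, S100a8 and S100a9, and 1 of 6 had a negative estimate (median 1.04). Of 5 liver markers Ttr fell (-1.14 ± 0.12), and all 5 had negative estimates. Of 6 hepatocyte markers Serpina1a fell (-1.08 ± 0.16), and 4 had negative estimates. The heart marker Ryr2 fell (-0.82 ± 0.14). The part of these cells in the sterol gene values was not tested.

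In brain, none of 28 passed, where 0.0607% of 21406 tested genes did, and none had an unadjusted p under 0.05, against 2.94%. The smallest p-values belonged to Hsd17b7, Nsdhl and Ebp, with +0.15 ± 0.09, +0.12 ± 0.09 and -0.11 ± 0.09 (unadjusted p = 0.12, 0.189 and 0.261) in the authors' deposited table for brain. Estimates were negative for 7 of 28, against 49.2% of all tested genes. The brain data were the most precise. Median SE was 0.09 in brain, 0.11 in kidney, 0.16 in liver, 0.17 in heart and 0.19 in spleen. The 95% interval lay within ± 0.3 on the log2 scale for 23 of 28 genes in brain. It did so for 11 in kidney, 3 in spleen and 0 in heart and liver. These counts depend on where the estimates lie as well as on the SE. A fall of 0.3 lay outside the interval of 26 genes in brain, 15 in kidney, 10 in spleen, 9 in heart and 3 in liver.

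In spleen, none of 28 passed, where 0.0741% of 22947 tested genes did, and none had an unadjusted p under 0.05, against 6.29%. Lss came closest with -0.43 ± 0.22 (unadjusted p = 0.0517), followed by Hsd17b7 with -0.34 ± 0.19 (0.0672) and Ebp with +0.35 ± 0.19 (0.0742), in the authors' deposited table for spleen. The adjusted p-values of all 28 genes were 0.801 or more (DESeq2), and 19 of 28 estimates were negative, against 47.8% of all tested genes. The medians were 0.05 in brain, -0.05 in kidney and -0.07 in spleen. All 6 neutrophil, 7 macrophage and 5 erythroid markers had positive estimates in spleen, with medians of 1.18, 0.30 and 0.77. An unadjusted p under 0.05 was found for 4, 2 and 2 of them, and none passed (DESeq2). The part of these cells in the sterol gene values was not tested.

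**Figure D3:**
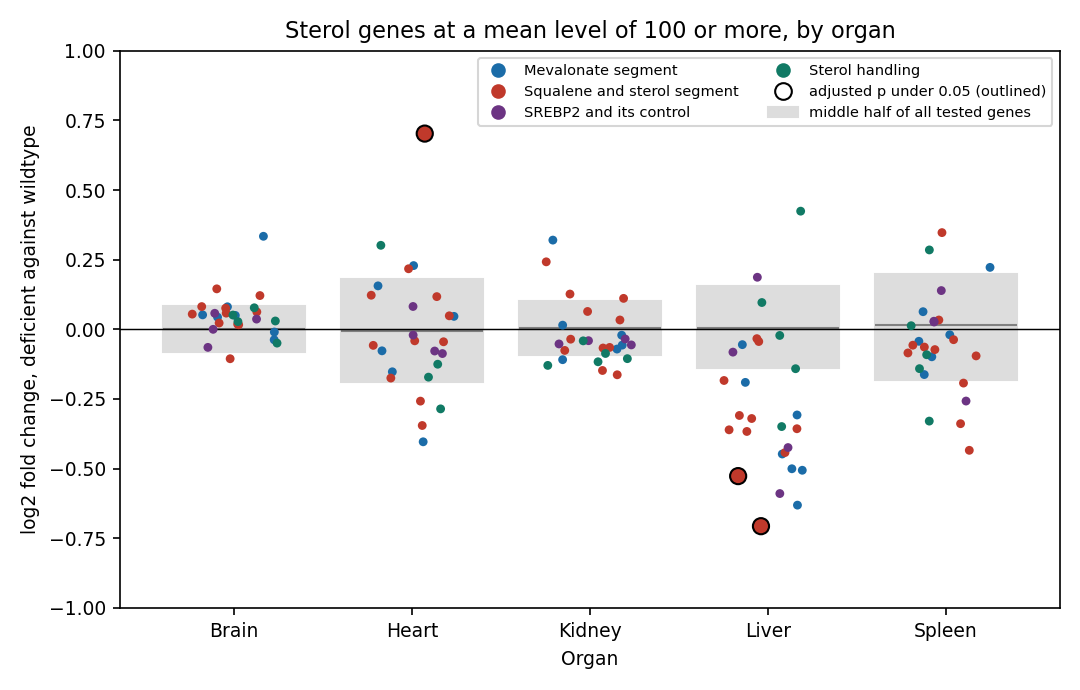
Log2 fold change (vertical axis, Ftsj1-deficient against wildtype) by organ for the sterol genes whose mean level there reached 100, 1 point per gene, from the authors' deposited tables; grey boxes span the quartiles of all tested genes and outlined points passed. The liver points lie mostly below the grey box (median -0.32 over 27 genes), and the outlined heart point is Hsd17b7.

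Whether a fold change differed between organs was tested for each gene with Cochran's Q over the 5 log2 fold changes, adjusted over 28693 genes, of which 0.784% passed. The test treats the organs as independent although they come from the same 6 mice. Of the 28 sterol genes 2 passed, Hsd17b7 (adjusted p = 0.00236) and Dhcr7 (adjusted p = 0.0402). Lss and Pmvk followed with adjusted p = 0.29 and 0.358, so a difference between organs was not shown for Lss. Without brain, the organ with the smallest errors, the adjusted p of Dhcr7 became 0.374.

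Hsd17b7 had +0.70 ± 0.13 in heart, +0.15 ± 0.09 in brain, -0.04 ± 0.10 in kidney, -0.04 ± 0.19 in liver and -0.34 ± 0.19 in spleen in the authors' deposited tables. The heart value exceeded the weighted mean of the other 4 organs by 0.70 ± 0.14 (SE; adjusted p = 0.00387 over 28693 genes, of which 0.0627% were higher in heart). Dhcr7 had -0.71 ± 0.15 in liver, -0.18 ± 0.13 in heart, -0.16 ± 0.11 in kidney, -0.10 ± 0.14 in spleen and +0.08 ± 0.09 in brain in the authors' deposited tables. Its liver value lay below the mean of the others by -0.65 ± 0.16 (adjusted p = 0.0106, where 0.383% of genes were lower in liver). Thus the estimate of Hsd17b7 in heart and that of Dhcr7 in liver each stood apart from the weighted mean of the other 4 organs. Without brain, Hsd17b7 kept its difference between organs (Cochran's Q, adjusted p = 0.0011), while for Dhcr7 none was shown (Cochran's Q, adjusted p = 0.374).

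**Figure D4:**
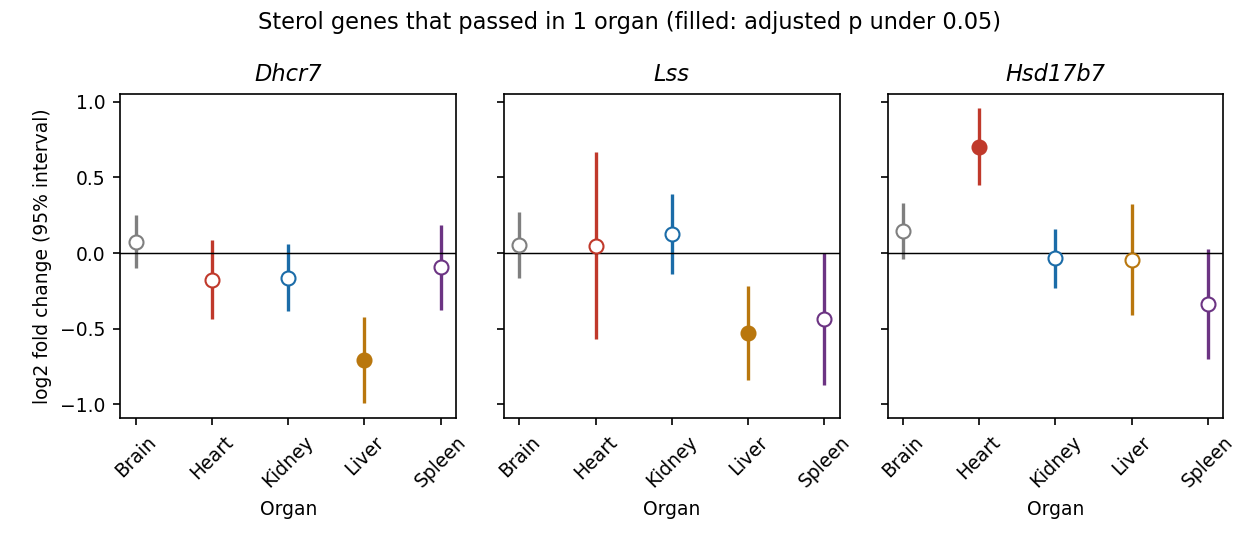
Log2 fold change with 95% interval (vertical axis) in each organ (horizontal axis) for Dhcr7, Lss and Hsd17b7, computed from the authors' SE; filled points passed in that organ. Dhcr7 is lowest in liver at -0.71, Hsd17b7 highest in heart at +0.70, and the spleen interval of Lss reaches as low as its liver interval.

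For the liver against the other organs as a whole, 25 of the 28 genes had a lower fold change in liver, with a median difference of -0.35. An unadjusted p under 0.05 for that difference was found for 13 genes, against 3.07% of all genes (4.19% of those whose mean level reached 10 in every organ). These were Acat2, Hmgcs1, Mvk, Pmvk, Fdft1, Lss, Msmo1, Nsdhl, Sc5d, Dhcr7, Insig1, Scap and Stard4, and Dhcr7 alone passed after adjustment. Soat1 was the 1 gene of the list above the other organs at that level, by 0.48 ± 0.17 (unadjusted p = 0.00524, adjusted p = 0.3), against 2.78% of all genes. Srebf2 had -0.08 both in liver and over the other organs. Pooled over the 5 organs by inverse-variance weights, none of the 28 genes passed, against 0.631% of all genes lower and 0.568% higher. An unadjusted pooled p under 0.05 was found for 2 of them, Dhcr7 and Hsd17b7, and the lowest adjusted p was 0.268 for Dhcr7.

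**Figure D5:**
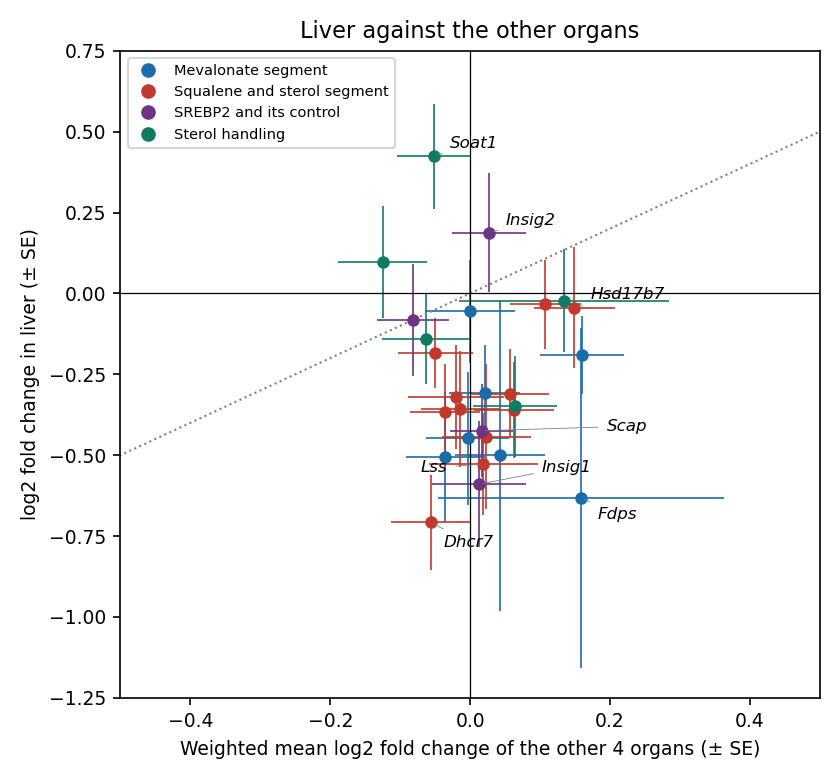
Log2 fold change in liver (vertical axis) against the inverse-variance mean of the other 4 organs (horizontal axis) for the sterol genes, with SE bars on both axes and the dotted line marking equal values. Of the 28 genes, 25 have a lower value in liver than over the other organs, while Soat1, Mylip and Insig2 lie above the line; Npc1l1, at a mean level of 9.60 in liver, is not drawn.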

How the data were processed

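RNA from 5 organs of 6 mice was sequenced as poly-A libraries. The submitters' processing notes name featureCounts, Subread 2.0.3, DESeq2 and build GRCm39. Not given in the sources used here are the aligner, the annotation, the use of strand in counting and any litter term in the model. Per the file headers, the authors deposited for each gene and organ a signal (DESeq2's mean of normalised counts), an unshrunken log2 fold change with its SE, the Wald score, a p-value and an adjusted p-value. Depth per library is unknown, and no value per library was used. Deposited values were not refitted.

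From these, 95% intervals (1.96 SE), Cochran's Q, inverse-variance means and the contrast of each organ with the others were computed in Python 3.11.15 with scipy 1.17.1, tested on simulated data first, and adjusted by Benjamini-Hochberg over all 28693 genes with a value in every organ. The simulated errors were drawn independently for each organ, so that check could not cover errors shared through the same mice. The contrast with the other organs and the summary over synthesis enzymes alone were added after the data were seen. Members and lists were chosen with earlier results of these data known. Named in full are genes with an adjusted p under 0.05 in an organ or in Cochran's Q and, in an organ with no call, the 3 with the smallest p. Other values of the 28 genes, and the examples in the account of levels, were chosen after they were seen, by role or extreme value. The alternatives tried were other filters on low levels, adjustment over the 5 organs together, another threshold, centring on all genes, weighted means and leaving out each organ. Promoters were searched in a RefSeq table of build GRCm38.p6, and copies in transcripts of the GRCm38 annotation. The 20 tables of non-coding features name none of the 28 genes and were not used.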

Additional observations from a re-analysis of the deposited data

Results flagged for a closer look

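Fold changes of 2 genes differed between organs under the same contrast by Cochran's Q. For Hsd17b7 the adjusted p was 0.00236, with the heart value above the other organs. For Dhcr7 it was 0.0402, with the liver value below them. The organs come from the same 6 mice, which this test ignores, and no value per mouse was at hand to look for a mouse that stands apart.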

How the results depend on the processing

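Of 2 calls in liver, 1 (Dhcr7) was left with adjustment over the 5 organs together and 1 (Dhcr7) with no filter on low levels, while Lss had an adjusted p of 0.0976 and 0.0699, and 4 genes passed at an adjusted p under 0.1 (Insig1 and Scap added). Of the 2 genes that differed between organs, 1 was left without brain (Hsd17b7), 1 without heart (Dhcr7) and 1 without liver (Hsd17b7). The pooled change over organs called 0 genes, and 1 (Dhcr7) without brain. The median in heart, -0.04, turned to a weighted mean of 0.0206, and both are small beside the errors of single genes. No fit was repeated for these alternatives. For Lss the log2 fold change stayed at -0.53, and only the number of genes in the adjustment differed. Fewer organs entered where an organ was left out. Nothing further about these changes was tested. The other 80 values computed under alternatives kept their direction and side of the threshold or stayed within 1.5 times the count. The median of all tested genes was farthest from 0 in spleen, at 0.0143, and centring on it changed no call. No paired analysis was possible because the tables hold no values per library, and for the same reason no mouse or litter could be left out. With 3 mice per genotype, no interval of the 28 genes in heart or liver lay within ± 0.3 on the log2 scale. Width was not the only limit: the interval of Ebp in liver, from -0.40 to 0.03, missed that range on its lower side only.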
